A study of Mus musculus with 10 samples.

Results

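The chromatin of 5 genes that set where a regulatory T (Treg) cell travels was followed with an assay for transposase-accessible chromatin by sequencing (ATAC-seq): Ccr7, S1pr1, Klf2, Il7r and Cd44. Their regions were chosen by position. Every peak of the deposited count table that touched the gene body or the 10 kb on either side was taken, which gave 53 of 97385 peaks, 11 for Ccr7, 11 for S1pr1, 4 for Klf2, 7 for Il7r and 20 for Cd44. All 53 passed the filter on low counts. Tregs sorted as CD4+Foxp3-YFP+TCRb+ cells came from the spleen or the lung of 10-day-old mice. Control mice carried Foxp3Cre with Pik3c3 +/+ or +/fl, and Vps34-deficient mice carried Foxp3Cre with Pik3c3 fl/fl, so that Cre was present in both groups. Pik3c3 encodes Vps34, the class III phosphatidylinositol 3-kinase, and its deletion was restricted to cells that express or have expressed Foxp3. The 10 libraries comprised 2 of spleen control, 4 of spleen Vps34-deficient, 2 of lung control and 2 of lung Vps34-deficient Tregs. The methods count these samples as mice, and whether a spleen and a lung library share an animal is not given in the sources used here. The p-values measure the spread between these libraries. Loss of Vps34 itself was not checked here, since accessibility does not measure it.

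CCR7 is the chemokine receptor that guides T cells into lymph nodes and the splenic T cell zone along CCL19 and CCL21. S1PR1 senses sphingosine-1-phosphate and lets lymphocytes leave lymphoid organs, KLF2 is the zinc-finger factor that drives S1pr1, and IL7R is the alpha chain of the interleukin 7 receptor. These 4 genes are typical of resting or central Tregs, whereas CD44, an adhesion receptor for hyaluronan, is low on resting and high on effector Tregs.

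Peaks are named here by their gene and the distance in bases from the gene's start to the peak's centre, with plus in the direction of transcription. The following 5 windows are shown because they carry the tissue and genotype differences described below. Each is the 300 bases around a peak's centre, read from RefSeq's GRCm38 assembly on the plus strand. Ccr7, Il7r and Cd44 are all transcribed from the minus strand. The windows lie at chr11:99142968-99143267 and chr11:99142102-99142401 in the 3′ flank of Ccr7, at chr11:99160786-99161085 upstream of Ccr7, at chr15:9528178-9528477 in an intron of Il7r and at chr2:102806614-102806913 in the 3′ flank of Cd44. The windows of Ccr7 +12826 and Cd44 +94902 run past both edges of their peaks of 274 and 210 bases. Capitals mark the letters of a searched motif.
Ccr7 +11960: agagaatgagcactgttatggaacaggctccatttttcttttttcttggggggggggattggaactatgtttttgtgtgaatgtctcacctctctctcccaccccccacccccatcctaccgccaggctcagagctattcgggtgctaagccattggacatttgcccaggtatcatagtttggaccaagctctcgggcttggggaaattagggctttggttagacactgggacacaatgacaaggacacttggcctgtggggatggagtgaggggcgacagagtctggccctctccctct
Ccr7 +12826: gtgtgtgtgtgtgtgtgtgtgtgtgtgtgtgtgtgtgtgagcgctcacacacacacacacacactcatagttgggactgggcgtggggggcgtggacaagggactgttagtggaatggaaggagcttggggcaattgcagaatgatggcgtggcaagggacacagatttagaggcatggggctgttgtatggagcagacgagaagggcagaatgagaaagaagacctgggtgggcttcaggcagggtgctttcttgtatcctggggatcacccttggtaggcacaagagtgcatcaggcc
Ccr7 -5858: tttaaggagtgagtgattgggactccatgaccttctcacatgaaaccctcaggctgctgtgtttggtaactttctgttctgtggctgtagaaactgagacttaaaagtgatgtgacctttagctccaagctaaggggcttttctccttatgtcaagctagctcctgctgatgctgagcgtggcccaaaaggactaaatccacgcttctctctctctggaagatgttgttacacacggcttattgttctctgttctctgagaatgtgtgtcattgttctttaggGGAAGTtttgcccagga
Il7r +1508: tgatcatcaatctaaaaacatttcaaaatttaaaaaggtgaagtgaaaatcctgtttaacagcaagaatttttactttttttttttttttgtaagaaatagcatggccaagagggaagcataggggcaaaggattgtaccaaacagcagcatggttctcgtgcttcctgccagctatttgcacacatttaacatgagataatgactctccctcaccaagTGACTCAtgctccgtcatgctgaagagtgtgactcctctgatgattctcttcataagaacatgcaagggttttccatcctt
Cd44 +94902: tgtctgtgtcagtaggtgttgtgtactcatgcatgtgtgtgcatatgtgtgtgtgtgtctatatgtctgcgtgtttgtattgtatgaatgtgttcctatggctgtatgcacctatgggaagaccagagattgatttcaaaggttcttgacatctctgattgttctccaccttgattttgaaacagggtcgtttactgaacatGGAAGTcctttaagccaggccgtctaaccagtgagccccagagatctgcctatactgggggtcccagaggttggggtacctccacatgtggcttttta

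The letters searched on both strands were GTAAACA for FOXO factors, CCACACCC for KLF factors, CTTTGAT for TCF and LEF, TGTGGTT for RUNX, GGAAGT for ETS and TGANTCA for AP-1, with an NF-kB motif of 10 letters given by name alone, and any of them may overlap in a window. Of the 53 windows, 19 held the ETS letters (35.8%, beside 26.9% of the 97250 peak windows read in the same way), 11 held the AP-1 letters (20.8% beside 13%) and 6 held the TCF and LEF letters (11.3% beside 5.75%). The RUNX letters stood in 6 (11.3% beside 10.8%), and the FOXO (beside 4.34%), KLF (beside 3.92%) and NF-kB (beside 2.66%) letters in 2 each (3.77%). Of the windows printed above, Ccr7 -5858 and Cd44 +94902 each held 1 ETS match and Il7r +1508 held 1 AP-1 match. Both 3′ windows of Ccr7 held none of these letters, which says only that these strings are not in those 300 bases.

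The libraries summed to 9405823 to 22439699 counts, with a median of 32 to 72 counts per peak, and 3 of the 4 lung libraries were among the 4 shallowest. In each library, 91.5% to 96.5% of the peak counts were even. Both mates of a read pair may thus have been counted, with 2 counts for 1 fragment, which the methods do not state. All 7 Treg and T cell markers had a peak within 1 kb of the gene's start, and Foxp3 was at 58.7 to 82.1 CPM, which are counts scaled to a column total of 1000000. This list summed to 221 to 242 CPM in spleen control, 208 to 250 in spleen Vps34-deficient, 191 to 241 in lung control and 178 to 214 in lung Vps34-deficient libraries, the last below spleen control without overlap, and Foxp3 averaged 78.1, 75.8, 69.8 and 64.8 CPM in that order. Markers of other cells were partly open as well. Peaks stood at the starts of 4 of 7 B cell, 3 of 8 myeloid, 2 of 5 dendritic, 3 of 10 lung endothelial, 3 of 8 lung epithelial and 5 of 7 CD8 T and NK cell markers, while Cd79a, Csf1r, Lyz2, Cdh5, Nkx2-1, Sftpc and Ncr1 had none there. The dendritic cell markers summed to 26.7 to 27.6 CPM in spleen control, 21.1 to 28.7 in spleen Vps34-deficient, 38.7 to 40.4 in lung control and 30.6 to 35.2 in lung Vps34-deficient libraries. They were thus higher in lung in both genotypes and, within lung, lower in Vps34-deficient libraries. Most of that sum was Zbtb46, and the defining genes Xcr1, Siglech and Clec9a had no peak at their start. The myeloid markers summed to 35.3 to 36.1, 25.4 to 29.7, 38.9 to 44.0 and 24.6 to 26.5 CPM in the same order. They were lower in Vps34-deficient libraries of both tissues and, among controls, higher in lung. Of the 8 myeloid markers, 5, among them Csf1r, Lyz2 and Adgre1, had no peak there. The CD8 T and NK cell markers summed to 41.2 to 49.9, 39.2 to 52.6, 35.4 to 42.7 and 46.6 to 51.2 CPM, higher in Vps34-deficient than in control lung, with Ncr1 and Klrb1c at no peak. The lung epithelial markers summed to 34.2 to 36.2, 29.0 to 33.8, 24.9 to 30.5 and 26.7 to 27.0 CPM, lower in lung within each genotype. The B cell markers summed to 17.8 to 24.3, 21.5 to 25.2, 23.8 to 25.6 and 21.9 to 22.6 CPM, lower in Vps34-deficient than in control lung. The lung endothelial markers, at 13.8 to 23.5 CPM over all libraries, overlapped between groups. The part of these markers in the results below was not tested. A lower value in sorted bulk cells can reflect fewer cells with an open region or less access per cell, and these cannot be told apart.

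The 5 genes were asked 2 questions, whether their chromatin differed between lung and spleen, and whether it differed without Vps34. A peak was called at an adjusted p under 0.05 in edgeR's quasi-likelihood test over 97109 tested peaks with an absolute log2 fold change above 0.5. Averaged over genotypes, 8 of the 53 peaks were higher in lung (15.1%, beside 18.2% of all tested peaks) and 2 were lower (3.77% beside 7.03%). In control Tregs, 5 were higher (9.43% beside 11.8%) and 1 was lower (1.89% beside 3.53%), and in Vps34-deficient Tregs, 8 were higher (15.1% beside 12.4%) and 2 were lower (3.77% beside 4.72%). The members' counts lay near the background in each of these comparisons. The tissue effect was positive at 39 of the 53 peaks on average over genotypes, with a median of 0.14 beside -0.01 over all tested peaks. It was positive at 40 in control Tregs, with a median of 0.29 beside 0.04, and at 32 in Vps34-deficient Tregs, with a median of 0.12 beside -0.03.

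The members' counts between genotypes lay near or below the background. In spleen, none of the 53 was called higher (beside 0.44% of all peaks) or lower (beside 1.02%) in Vps34-deficient Tregs, and 5 had an unadjusted p under 0.05 (9.43% beside 14.3%). In lung, 1 was higher (1.89% beside 1.22%) and none was lower (beside 3.74%), and 9 had an unadjusted p under 0.05 (17.0% beside 20.3%). Averaged over both tissues, 2 were higher (3.77% beside 4.45%) and 2 were lower (3.77% beside 4.97%). The genotype effect did not differ detectably between the tissues at any of the 53 peaks, as no peak of the whole table passed that test (0%), while 3 of the 53 had an unadjusted p under 0.05 (5.66% beside 7.28%).

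**Figure D1:**
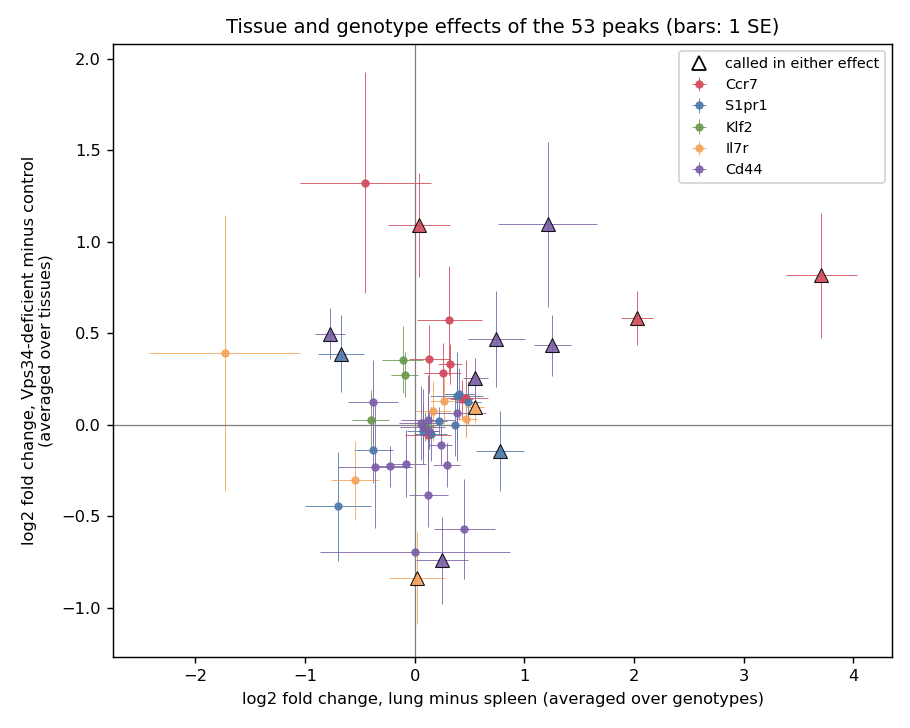
Log2 fold change of the 53 peaks between lung and spleen (horizontal axis, averaged over genotypes) and between Vps34-deficient and control Tregs (vertical axis, averaged over tissues), with bars of 1 SE and triangles for peaks called in either effect. The 2 red triangles at the far right are the 3′ peaks Ccr7 +11960 and Ccr7 +12826, at 2.02 and 3.71 on the tissue axis.

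Ccr7 (chr11:99144196-99155077) had the clearest tissue difference, in a pair of peaks just beyond its 3′ end. Ccr7 +11960 (chr11:99142577-99143658) stood at 4.19 and 5.23 CPM in the spleen control libraries, at 5.22, 4.34, 5.42 and 6.96 in the spleen Vps34-deficient libraries, at 14.7 and 13.5 in lung control and at 28.0 and 27.0 in lung Vps34-deficient. Every lung library was above every spleen library, and both Vps34-deficient lung libraries were above both lung controls. The log2 fold change between lung and spleen was 1.67 ± 0.23 (SE, adjusted p = 6.6e-05) in control and 2.38 ± 0.18 (adjusted p = 8.3e-08) in Vps34-deficient Tregs, and the call was kept in all 10 fits that left out 1 library, for both.

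The same peak was the only one of the 53 called between genotypes in lung, with a log2 fold change of 0.94 ± 0.21 (adjusted p = 0.0087). In spleen the difference was 0.23 ± 0.21 (adjusted p = 0.69), and the difference between these effects, 0.72 ± 0.29, had an adjusted p of 0.60. Averaged over tissues the genotype effect was 0.59 ± 0.15 (adjusted p = 0.012). The lung call was lost without lung control replicate 2 (log2 fold change 0.93, adjusted p = 0.070), and the averaged call was lost without spleen control replicate 1 (0.49).

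Ccr7 +12826 (chr11:99142115-99142388) was nearly closed in spleen. It had 0.267 and 0.276 CPM in spleen control and 0.417, 0.489, 0.361 and 0.287 in spleen Vps34-deficient libraries, which are 4 to 8 counts per library. In lung it reached 3.40 and 2.26 CPM in control (32 counts in each) and 6.01 and 6.35 in Vps34-deficient libraries (74 and 60 counts). The groups of the 2 tissues did not overlap, and the log2 fold change of lung over spleen was 3.41 ± 0.52 (adjusted p = 0.00014) in control and 4.01 ± 0.38 (adjusted p = 1.1e-06) in Vps34-deficient Tregs, called in all 10 fits that left out 1 library. Both lung Vps34-deficient values were above both lung controls here too, by 1.12 ± 0.40 on the log2 scale, which did not pass the test (adjusted p = 0.11).

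**Figure D2:**
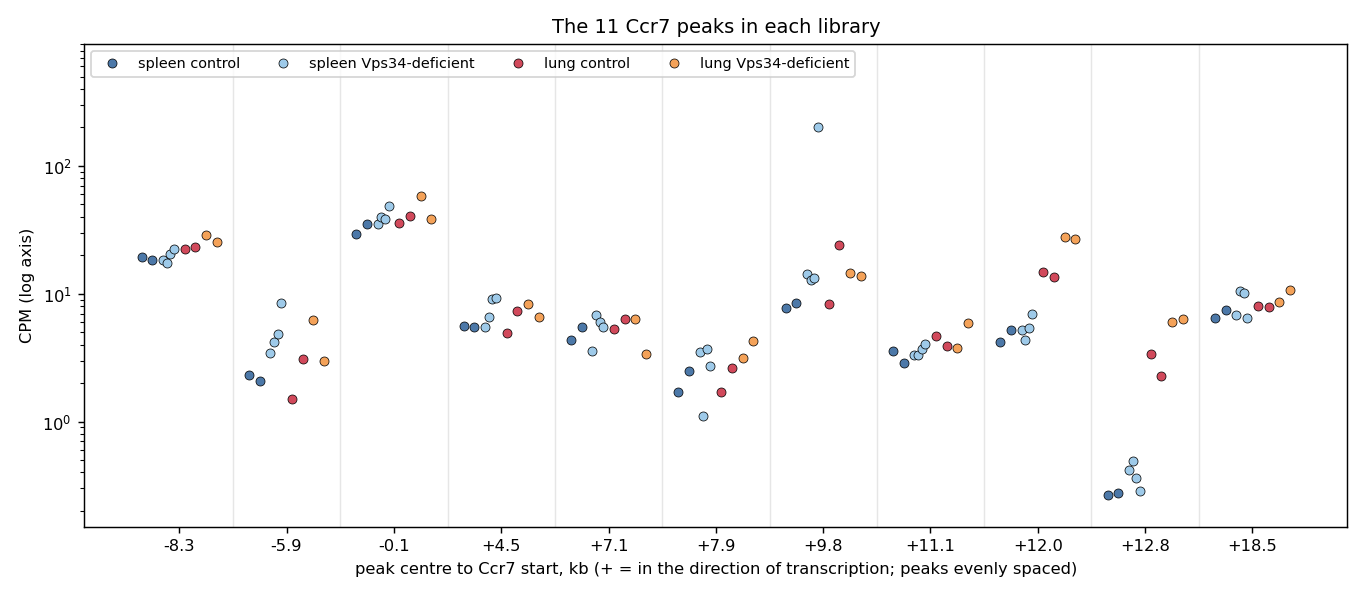
Accessibility of the 11 Ccr7 peaks in every library, in CPM on a log axis, ordered by distance from the gene's start. At +12.0 and +12.8 kb the red and orange lung points lie above all blue spleen points, and at +9.8 kb a single spleen Vps34-deficient library lies at 203 CPM.

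The promoter of Ccr7 was its most open region on average over the libraries. Ccr7 -122 held 29.2 and 35.0 CPM in spleen control, 35.1, 39.6, 38.4 and 48.4 in spleen Vps34-deficient, 35.5 and 40.3 in lung control and 58.0 and 38.7 in lung Vps34-deficient libraries. The 4 spleen Vps34-deficient values were above both spleen controls, by a narrow margin, and the lung groups overlapped. The genotype effect averaged 0.33 ± 0.11 (adjusted p = 0.052), with 0.33 in each tissue, and the tissue effect averaged 0.32 ± 0.11 (adjusted p = 0.029, under the 0.5 threshold).

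Upstream, Ccr7 -5858 (chr11:99160746-99161125) rose in Vps34-deficient Tregs, by 1.09 ± 0.28 on the log2 scale averaged over tissues (adjusted p = 0.015). Its values were low, at 2.32 and 2.07 CPM in spleen control, 3.41, 4.16, 4.87 and 8.47 in spleen Vps34-deficient, 1.49 and 3.10 in lung control and 6.17 and 2.96 in lung Vps34-deficient libraries. The spleen groups did not overlap, whereas the lung groups did. The call was lost without spleen control replicate 1 (1.12, adjusted p over 0.05) or lung Vps34-deficient replicate 1 (0.79). Ccr7 -8259 was higher in Vps34-deficient lung than spleen (0.53 ± 0.13, adjusted p = 0.0078), with 25.4 and 28.9 CPM against 17.4 to 22.3, and fell under the 0.5 threshold in 4 of the 10 fits that left out 1 library, without spleen Vps34-deficient replicates 1 (0.44), 2 (0.42) and 3 (0.49) or lung Vps34-deficient replicate 1 (0.49), and also with library size alone (0.48) or no filter (0.47). Across the 11 peaks the genotype effect was positive at 11 in spleen and at 9 in lung. The share of positive effects over all tested peaks is not given here. The median effect was 0.33 in spleen beside 0.05 over all tested peaks, 0.25 in lung beside 0.02, and 0.36 averaged beside 0.04. The peaks share libraries, so these counts describe the gene and were not tested.

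One value at Ccr7 stood apart. The peak Ccr7 +9785 (chr11:99144499-99146085, 1587 bases, 96.8% of them within the last exon, which holds most of the coding sequence) had 203 CPM, 2830 counts, in spleen Vps34-deficient replicate 4. The other 9 libraries held 7.75 to 24.3 CPM, or 78 to 344 counts, with lung control replicate 2 the next highest. Of 16412 peaks that reached 20 CPM in some library, this was the only one whose highest library was at least 5 times the next, and here the ratio was 8.37. That library was also the highest of the 6 spleen libraries at 6 of the other 10 Ccr7 peaks, by smaller margins, such as 48.4 against at most 39.6 CPM at the promoter. How often it was the highest spleen library over all peaks was not counted, so this number has no background beside it.

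That peak made up most of the summed value of the gene in that library only. Summed over its 11 peaks, Ccr7 had 84.9 and 93.2 CPM in spleen control, 99.3, 107, 115 and 317 in spleen Vps34-deficient, 110 and 135 in lung control and 172 and 145 in lung Vps34-deficient libraries. All 4 spleen Vps34-deficient sums were above both spleen controls and both lung Vps34-deficient sums above both lung controls. The genotype effect on the sum was 0.84 ± 0.35 in spleen (adjusted p = 0.42), 0.35 ± 0.39 in lung (adjusted p = 0.64) and 0.59 ± 0.26 averaged (adjusted p = 0.16), and the tissue effect averaged 0.29 ± 0.26 (adjusted p = 0.42).

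Without spleen Vps34-deficient replicate 4 the averaged genotype effect was 0.31, still not called, and the averaged tissue effect 0.58, which was then called. An alternative chosen after seeing the data, the sum without the last-exon peak, gave the Vps34-deficient libraries 85.0 to 114 CPM in spleen and 131 and 157 in lung, against 77.2 and 84.8 in spleen control and 102 and 110 in lung control. On that sum, the genotype effect averaged 0.36 ± 0.08 (adjusted p = 0.015), below the 0.5 threshold, and lung exceeded spleen by 0.53 ± 0.08 (adjusted p = 0.00013), which was called.

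**Figure D3:**
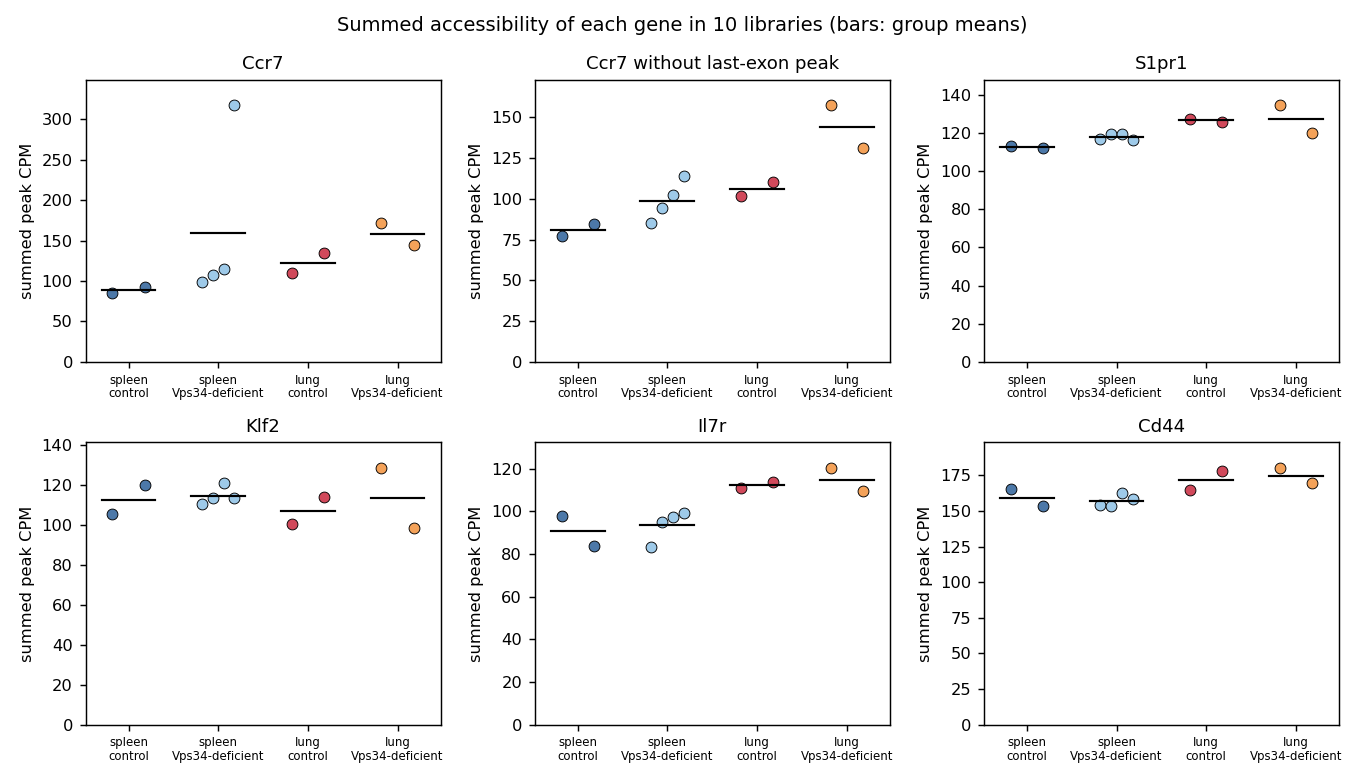
Summed CPM of the peaks of each gene in the 10 libraries, grouped by tissue and genotype, with bars at the group means, and Ccr7 shown with and without its last-exon peak. The single high Ccr7 point is at 317 CPM, and for Il7r all 4 lung points, from 109 to 120 CPM, lie above all 6 spleen points.

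Summed over its peaks, Il7r (chr15:9505788-9530176) was more open in lung in both genotypes, by a small margin that was alike in the 2 genotypes. Its 7 peaks summed to 97.7 and 84.0 CPM in spleen control, 83.3, 94.8, 97.2 and 99.3 in spleen Vps34-deficient, 111 and 114 in lung control and 120 and 109 in lung Vps34-deficient libraries. No lung library overlapped a spleen library, and within each tissue the genotypes overlapped. The tissue effect was 0.38 ± 0.09 in control (adjusted p = 0.014) and 0.35 ± 0.08 in Vps34-deficient Tregs (adjusted p = 0.0080), and 0.36 ± 0.06 averaged (adjusted p = 0.00042), all under the 0.5 threshold. The genotype effect averaged 0.03 ± 0.06 (adjusted p = 0.81).

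The lung gain of the Il7r sum was shared by a peak in an intron and a peak upstream, while 2 weaker intron peaks leaned the other way. Il7r +3221 (3.09 to 7.13 CPM) averaged -0.55 ± 0.22 between tissues (adjusted p = 0.060). Il7r +9219 (at most 1.96 CPM) averaged -1.73 ± 0.69 (adjusted p = 0.061), and neither was called. In Vps34-deficient Tregs, 3 of the 7 peaks had a positive tissue effect and 4 a negative one. The intron peak Il7r +1508 (chr15:9527933-9528721) held 28.8 and 27.1 CPM in spleen control, 24.8, 30.2, 29.4 and 29.9 in spleen Vps34-deficient, 37.0 and 37.3 in lung control and 45.2 and 38.7 in lung Vps34-deficient libraries, so that the tissues did not overlap. The averaged tissue effect was 0.55 ± 0.09 (adjusted p = 3.9e-05), and in Vps34-deficient Tregs it was 0.61 ± 0.11 (adjusted p = 0.00053). The adjusted p of the averaged effect stayed at or under 0.0011 in all 10 fits that left out 1 library, while the size fell below 0.5 in 5 of them, without spleen Vps34-deficient replicates 1 (0.45), 2 (0.49) and 3 (0.48), lung control replicate 2 (0.49) or lung Vps34-deficient replicate 1 (0.49). It also fell below 0.5 with library size alone (0.48), no filter (0.48), a filter of 1 CPM (0.498) or halved counts (0.4995). The effect in Vps34-deficient Tregs fell to 0.49 without spleen Vps34-deficient replicate 1.

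The most open Il7r peak, Il7r -3710 upstream, ranged from 23.6 to 36.0 CPM in the 6 spleen libraries and from 37.7 to 42.0 in the 4 lung libraries, with an averaged tissue effect of 0.47 ± 0.10 (adjusted p = 0.0012), and was called in control Tregs (0.52 ± 0.16, adjusted p = 0.025). That call was kept in only 1 of the 10 fits that left out 1 library, with values from 0.30 to 0.62, and was lost under 6 other scalings, filters or tools and with controls alone, at 0.42 to 0.49. The promoter Il7r +9 held 12.4 to 16.8 CPM in spleen and 14.5 to 18.8 in lung, with an averaged tissue effect of 0.26 ± 0.12 (adjusted p = 0.11). Il7r +5662, a weaker intron peak of 1.83 to 7.62 CPM, was lower in Vps34-deficient Tregs by -0.84 ± 0.25 averaged over tissues (adjusted p = 0.032), with no overlap between genotypes in either tissue. The call was kept in 4 of the 10 fits that left out 1 library, with values from -0.97 to -0.58, the latter without lung control replicate 2.

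**Figure D4:**
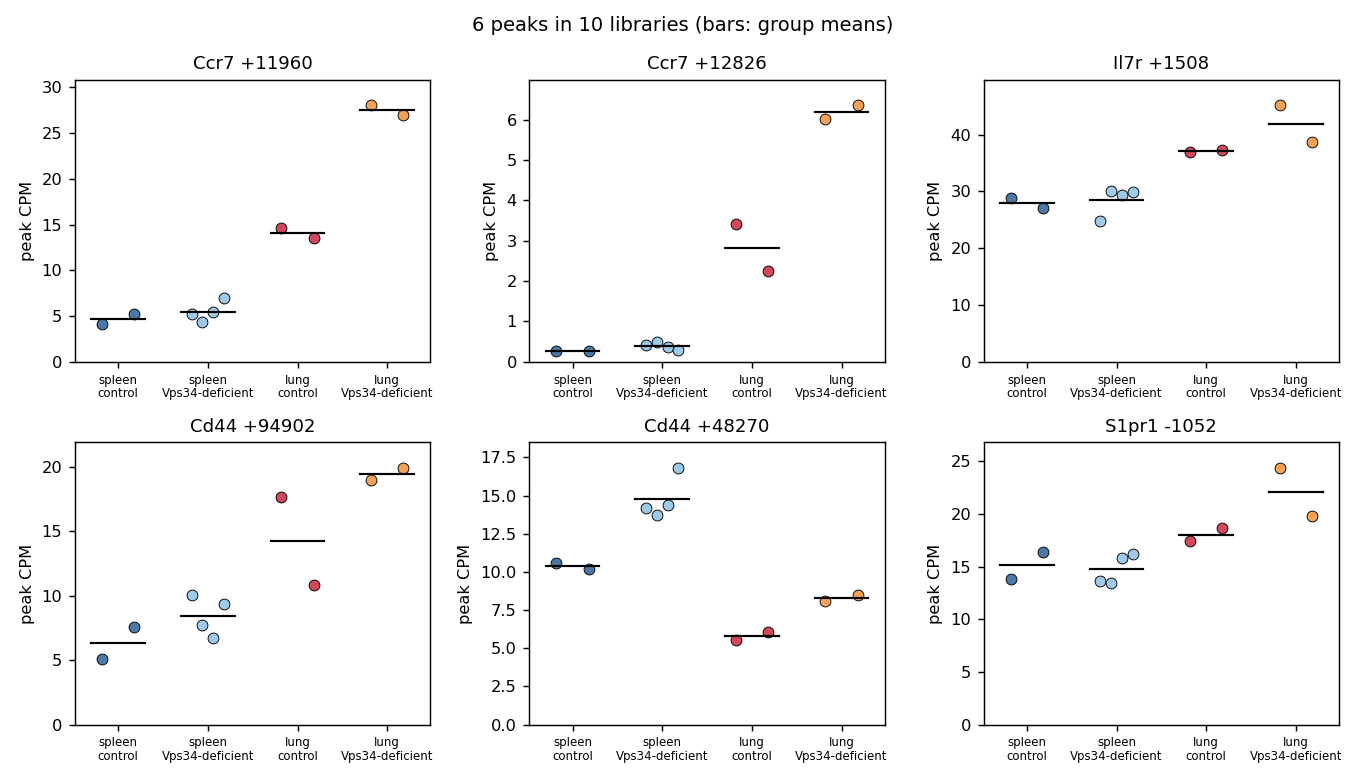
CPM of 6 peaks in the 10 libraries with bars at the group means, each panel on its own axis from 0. All 4 lung points lie above all 6 spleen points at Ccr7 +11960, Ccr7 +12826, Il7r +1508, Cd44 +94902 and S1pr1 -1052, and below them at Cd44 +48270.

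S1pr1 (chr3:115710433-115715072) was slightly more open in lung as well. Its 11 peaks summed to 113 and 112 CPM in spleen control, 117, 119, 119 and 116 in spleen Vps34-deficient, 127 and 126 in lung control and 134 and 120 in lung Vps34-deficient libraries, and the 4 lung values were all above the 6 spleen values. The lowest lung value, 119.9, was just over the highest spleen value, 119.5. The tissue effect was 0.25 ± 0.08 in control (adjusted p = 0.042), 0.16 ± 0.07 in Vps34-deficient Tregs (adjusted p = 0.098) and 0.20 ± 0.05 averaged (adjusted p = 0.0061). The averaged genotype effect was 0.03 ± 0.05 (adjusted p = 0.75). S1pr1 +114, S1pr1 -459 and S1pr1 -1052 also overlap the gene Gm9889. The promoter S1pr1 +114, its most open peak, followed with 42.3 to 46.4 CPM in spleen and 46.7 to 51.6 in lung, an effect of 0.22 ± 0.07 (adjusted p = 0.027).

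Single S1pr1 peaks moved both ways. S1pr1 -1052 held 13.5 to 16.4 CPM in the 6 spleen libraries, 17.4 and 18.6 in lung control and 24.4 and 19.8 in lung Vps34-deficient libraries, and was called in Vps34-deficient Tregs (0.63 ± 0.15, adjusted p = 0.0051), a call lost without lung Vps34-deficient replicate 1 (0.53). S1pr1 +12820, in the 3′ flank, was higher in lung (0.78 ± 0.22, adjusted p = 0.0087), with 3.49 to 5.74 against 2.17 to 3.09 CPM, and was lost without lung control replicate 1 (0.63). S1pr1 +5551 was lower in lung (-0.67 ± 0.21, adjusted p = 0.018), with 2.19 to 3.39 against 3.17 to 5.50 CPM and a small overlap, and was lost without spleen control replicate 1 (-0.61) or lung Vps34-deficient replicate 1 (-0.58).

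Weaker evidence stood behind the other S1pr1 calls. S1pr1 +12064 was lower in lung than in spleen Vps34-deficient Tregs (-1.42 ± 0.42, adjusted p = 0.021), at 1.46 and 0.635 CPM against 1.81 to 3.97, and was lost without spleen Vps34-deficient replicate 3 (-1.31) or lung Vps34-deficient replicate 2 (-0.93). S1pr1 -459 was called in control Tregs (0.64 ± 0.21, adjusted p = 0.045) and in none of the 10 fits that left out 1 library, with values from 0.37 to 0.69, and was lost under 6 other scalings, filters or tools and with controls alone, down to 0.55. No S1pr1 peak was called between genotypes.

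Summed over its peaks, Klf2 (chr8:72319033-72321656) did not differ measurably between any groups. Its 4 peaks summed to 105 and 120 CPM in spleen control, 110, 114, 121 and 113 in spleen Vps34-deficient, 101 and 114 in lung control and 128 and 98.4 in lung Vps34-deficient libraries, so that all 4 groups overlapped. The averaged effects were 0.04 ± 0.07 for genotype (adjusted p = 0.75) and 0.02 ± 0.07 for tissue (adjusted p = 0.84), and the sign of both turned under some settings. The promoter Klf2 +104 held 72.4 to 99.7 CPM and made up 74.6% of the sum. No Klf2 peak was called in any comparison with all libraries. The lowest p between tissues was at Klf2 +3494 (-0.40 ± 0.17, adjusted p = 0.075) and between genotypes at Klf2 +12112 (0.27 ± 0.12, adjusted p = 0.16), and the latter is also within 10 kb of Eps15l1. At Klf2 +12112 the Vps34-deficient libraries were above the controls in both tissues. They held 14.7 to 15.4 against 12.1 and 12.9 CPM in spleen, and 12.7 and 14.6 against 9.99 and 12.3 CPM in lung. The tissue effect of Klf2 +3494 was called in 3 of the 10 fits that left out 1 library, without spleen control replicate 1 (-0.60), spleen Vps34-deficient replicate 1 (-0.50) or lung control replicate 2 (-0.63).

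Cd44 (chr2:102811141-102901665), the gene that marks effector Tregs, held 20 peaks, most of them intronic. They summed to 165 and 153 CPM in spleen control, 154, 154, 163 and 159 in spleen Vps34-deficient, 165 and 178 in lung control and 180 and 169 in lung Vps34-deficient libraries. The averaged tissue effect was 0.19 ± 0.05 (adjusted p = 0.0066), with the lowest lung value, 165.0, just under the highest spleen value, 165.2. The averaged genotype effect was -0.01 ± 0.05 (adjusted p = 0.96).

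The tissue difference of Cd44 with the lowest p was in its 3′ flank. Cd44 +94902 (chr2:102806659-102806868) held 5.08 and 7.58 CPM in spleen control, 10.0, 7.71, 6.68 and 9.33 in spleen Vps34-deficient, 17.6 and 10.9 in lung control and 19.0 and 19.9 in lung Vps34-deficient libraries. All lung values were above all spleen values. The tissue effect was 1.24 ± 0.26 in control (adjusted p = 0.0019), 1.26 ± 0.21 in Vps34-deficient (adjusted p = 0.00018) and 1.25 ± 0.17 averaged (adjusted p = 4.4e-06). The averaged call was kept in all 10 fits that left out 1 library, while the control call was lost without spleen control replicate 1 (0.87) or lung control replicate 1 (0.80).

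In the opposite direction, Cd44 +48270, over a coding exon, was less open in lung. It held 10.6 and 10.2 CPM in spleen control, 14.2, 13.7, 14.4 and 16.8 in spleen Vps34-deficient, 5.53 and 6.07 in lung control and 8.12 and 8.47 in lung Vps34-deficient libraries. The tissues did not overlap, and in each tissue the Vps34-deficient libraries were above the controls. The tissue effect averaged -0.77 ± 0.14 (adjusted p = 0.00017), called in all 10 fits that left out 1 library. The genotype effect averaged 0.50 ± 0.14 (adjusted p = 0.022), which lay just under the threshold on the size and passed it under 4 other scalings or tools, at 0.51 to 0.53.

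Within the Cd44 introns, Cd44 +33935 was higher in lung (0.55 ± 0.11 averaged, adjusted p = 0.00055), with 21.0 to 32.5 CPM against 15.8 to 19.7, and fell under 0.5 in 3 of the 10 fits that left out 1 library, without spleen Vps34-deficient replicates 1 (0.46) and 2 (0.48) or lung Vps34-deficient replicate 1 (0.41), and with library size alone (0.49) or no filter (0.48). Cd44 +77732 was higher in lung in Vps34-deficient Tregs (1.75 ± 0.53, adjusted p = 0.022), with 2.11 and 2.54 CPM against 0.489 to 0.903, a call kept in 7 of those 10 fits and lost with loess offsets (1.38). Its averaged tissue call (1.21 ± 0.45, adjusted p = 0.045) was kept in 1 of the 10, with values from 0.53 to 1.56, and was lost under 6 other scalings, filters or covariates, down to 0.82. Over an untranslated exon, Cd44 +88713 averaged 0.74 ± 0.26 higher in lung (adjusted p = 0.033), a call kept in 4 of the 10, from 0.37 to 0.95, and lost with loess offsets (0.70). Cd44 +36533 was lower in Vps34-deficient Tregs (-0.74 ± 0.24, adjusted p = 0.044), a call kept in 1 of the 10, from -0.82 to -0.63, and lost in DESeq2 (-0.73). The promoter Cd44 +164 held at most 24.4 CPM and the most open peak, Cd44 +52532, 21.1 to 26.3 CPM, and neither was called in any comparison.

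**Figure D5:**
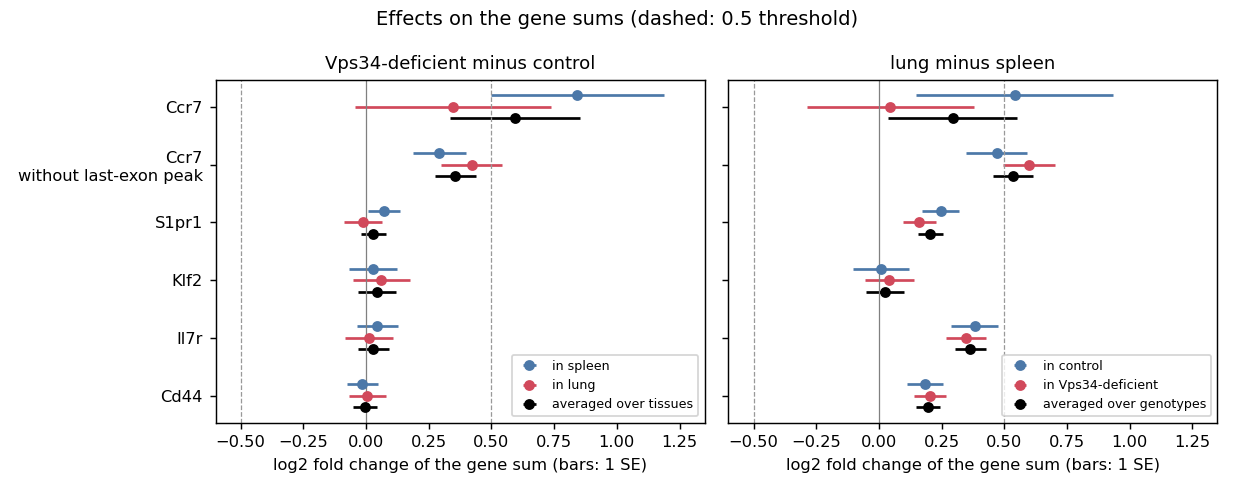
Log2 fold changes of the gene sums with bars of 1 SE, between genotypes (left) and between tissues (right), within each level of the other factor and averaged. Every genotype effect of S1pr1, Klf2, Il7r and Cd44 lies within 0.1 of 0, and the tissue effects of Il7r, S1pr1 and Cd44 lie above 0 and below the dashed 0.5 threshold.

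On the gene sums, none of the 5 genes was called in any comparison. The shares called among 17550 tested protein-coding genes were 0.217% for genotype in spleen, 2.38% for genotype in lung, 2.59% for genotype averaged, 8.46% for tissue in control, 9.78% for tissue in Vps34-deficient and 11.7% for tissue averaged. With the adjusted p alone, 3 of the 5 passed for tissue averaged over genotypes, Il7r, S1pr1 and Cd44, each higher in lung (beside 16.2% of all tested genes higher and 13.2% lower). None passed for genotype averaged over tissues (beside 2.99% higher and 4.91% lower).

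The genes differed in how open their starts were, compared per kb of promoter peak and averaged over the 10 libraries. S1pr1 had 84.3 CPM per kb, Klf2 84.0, Ccr7 64.7, Il7r 40.0 and Cd44 30.3, which placed them at the 85.1, 84.9, 75.8, 57.2 and 46.8 percentiles of 12983 genes with such a peak. S1pr1 and Klf2, next to each other in this order, were within 1 CPM per kb of each other.

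A list of 35 other genes of homing, egress and interleukin 7 receptor signalling was read beside them. Of their gene sums, none was called between genotypes in either tissue or on average, and 1 was called between tissues, Sphk1, which encodes a sphingosine kinase and was lower in lung (-0.67 ± 0.17 averaged, adjusted p = 0.0073). With the adjusted p alone, 6 of the 35 were higher and 7 lower in lung on average (shares of all genes as above), with a median of -0.10 beside -0.02 over all genes. Between genotypes, 2 were higher in Vps34-deficient Tregs on average at the adjusted p alone, Bcl2 (0.22 ± 0.05, adjusted p = 0.013) and Gfi1 (0.18 ± 0.05, adjusted p = 0.031). The gene lower was S1pr4, which encodes another sphingosine-1-phosphate receptor (-0.37 ± 0.06, adjusted p = 0.0016). In lung, S1pr4 (-0.47 ± 0.09, adjusted p = 0.010) and Rap1a (-0.35 ± 0.09, adjusted p = 0.034) were lower at the adjusted p alone (beside 3.07% of all genes), and both were under the 0.5 threshold. Foxo1, the factor upstream of Klf2 and Il7r, showed -0.10 ± 0.08 between tissues (adjusted p = 0.39), and Cd69, whose product pulls S1PR1 from the cell surface, 0.16 ± 0.05 (adjusted p = 0.025).

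Among 14373 genes, some of those whose log2 summed CPM followed each member most closely over the 10 libraries were found by Pearson's r, as a description of values that share libraries and depth. Il7r was close to Gusb (0.94) and Gramd3 (0.93), and Klf2 was nearest to Arf6 (0.92), Nr4a1 (0.91) and Map4k4 (0.91). S1pr1 was nearest to Cacna1b (0.96), Ccdc124 (0.94) and Ddx50 (0.92), and Cd44 to C1ql1 (0.95), Prdm13 (0.95) and Ngef (0.94). Ccr7 was nearest to Acsl4 (0.87), Atl3 (0.85) and Inpp5f (0.85), and without its last-exon peak to Ncoa5 (0.95), Plagl1 (0.95) and Rbm19 (0.94).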

How the data were processed

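The authors deposited 1 table of raw counts, the nucleosome-free reads of each library in a shared set of peaks, and per the labels the cells were sorted Tregs of 10-day-old mice. Their methods name adaptor trimming, BWA alignment, removal of duplicates, the Tn5 offset, MACS2 peaks per sample and merging of peaks that recurred between replicates. The methods name mm9 and the processing notes mm10 and GRCm38 (with cutadapt 1.9, Picard 1.65 and MACS2 2.1.0.20150603). Of 21842 gene starts of GRCm38, 51.9% fell in a peak, against 2.47% to 2.88% after shifting them, so GRCm38 was used. The methods give the spleen group sizes the other way round, and the labels were followed.

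CPM, computed from the deposited counts, are each count times 1000000 over its column total. Counts of all peaks, and counts summed per protein-coding gene, were fitted in R 4.3.3 with edgeR 4.0.16 (TMM factors, filterByExpr, 4 group means, quasi-likelihood test, Benjamini-Hochberg adjustment over all features), after the fit was tested on simulated data. The study's thresholds were kept. The common biological coefficient of variation was 17.8%. Named peaks are, per gene, the most open, the promoter, those of lowest p for tissue and for genotype, and all called. Ccr7 +9785 was named after its values were seen. Alternatives were other scalings, filters and windows, halved counts, DESeq2 1.42.0, a replicate block, a chromosome Y covariate (high and low libraries in every group, the labels giving no sex), single tissues or genotypes, and leaving out each library. Sequences came from RefSeq (GRCm38.p6), annotation from GENCODE. The member genes, lists and alternatives were chosen with earlier results of these data known. Results for some genes are not reported here.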

Additional observations from a re-analysis of the deposited data

Results flagged for a closer look

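In the group of 4 spleen Vps34-deficient libraries, the only group large enough for the test, the gap between the highest or lowest value and its neighbour was compared with Dixon's 95% critical value, over 59 peaks and gene sums. Chance alone flags about 1 in 20 such groups, and 5 of the 59 values passed. The summed Ccr7 accessibility was 317 CPM in replicate 4, beside 99.3 to 115 CPM in the other 3. The last-exon peak Ccr7 +9785, which is part of that sum, was 203 CPM in the same library, beside 12.8 to 14.3 CPM. S1pr1 +3581 was 9.79 CPM in replicate 2, beside 8.49 to 8.61 CPM, and Il7r +1508 was 24.8 CPM in replicate 1, beside 29.4 to 30.2 CPM. Il7r -5538 was 6.32 CPM in replicate 3, beside 9.72 to 10.2 CPM.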

How the results depend on the processing

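With 2 to 4 libraries a group, single libraries moved many calls, and the weakest peaks rest on few counts. When 1 library was left out, the number of the 53 peaks called ranged from 0 to 2 for genotype in spleen, 0 to 4 for genotype in lung, 0 to 5 for genotype averaged, 2 to 6 for tissue in control, 5 to 12 for tissue in Vps34-deficient and 6 to 13 for tissue averaged. The number of the 5 gene sums called ranged from 0 to 1 for each tissue comparison. With the size threshold raised to 1 on the log2 scale, 0 peaks were called for genotype in lung, 1 for genotype averaged, 3 for tissue in control, 5 for tissue in Vps34-deficient and 4 for tissue averaged. With a window of 25 kb, which adds 25 peaks to the 53, the counts at the main thresholds were 3 for genotype in lung, 8 for genotype averaged, 10 for tissue in control, 15 for tissue in Vps34-deficient and 16 for tissue averaged. Beside them, all tested peaks called higher and lower made up 1.22% and 3.74% for genotype in lung, and 4.45% and 4.97% averaged. For tissue these shares were 11.8% and 3.53% in control, 12.4% and 4.72% in Vps34-deficient, and 18.2% and 7.03% averaged. The adjusted p alone gave 16 peaks for tissue averaged and 2, 2 and 3 gene sums for tissue in control, in Vps34-deficient and averaged. Fits to 1 tissue alone called 2 peaks for genotype in spleen, and the fit to controls alone called 1 gene sum, Ccr7, for tissue. Shares of all features are not given here for left-out libraries, the raised threshold, the adjusted p of peaks or these fits. Those counts cannot be set against a background.

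Deviations of same-numbered libraries from their group means correlated at -0.098 to 0.064, and both extremes came from pairs of different genotypes. Between spleen and lung of the same genotype, where a shared animal is possible, the values were 0.0045 in control and -0.012 and 0.038 in Vps34-deficient Tregs. Chromosome Y accessibility was high or low alike in all 4 same-numbered spleen and lung pairs of a genotype, and whether the numbers mark shared animals is not given in the sources used here. The replicate block groups libraries by their number across all 4 groups. It thus puts control and Vps34-deficient mice of the same number together, and does not stand for animals. With this block, 0 peaks were called for genotype averaged, and 1 gene sum was called for tissue in control, in Vps34-deficient and averaged, which was Ccr7. Shares of all features under the block are not given here. The averaged tissue calls at S1pr1 +5551, Cd44 +77732 and Cd44 +88713, the control call at S1pr1 -459 and the Vps34-deficient tissue calls at S1pr1 +12064, Cd44 +48270 and Cd44 +77732 were lost under the block. The averaged Il7r genotype effect was -0.0008 under the block, and ran from -0.0044 to 0.0806 when 1 library was left out.

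Small gene sum effects turned sign. For Ccr7 the tissue effect in Vps34-deficient Tregs was -0.0035 with library size alone, -0.0042 with no filter and -0.0512 with a window of 2 kb, and from -0.1731 to 0.6186 when 1 library was left out, the latter called and without spleen Vps34-deficient replicate 4. For Klf2 the averaged genotype effect was -0.0046 with a window of 2 kb, and -0.0407 to 0.1533 when 1 library was left out. Its averaged tissue effect was -0.0393 with library size alone, -0.0000 with median-of-ratios factors, -0.0014 in DESeq2, -0.0438 with no filter, -0.0242 with a filter of 1 CPM in 2 libraries and -0.0224 with halved counts, and -0.0783 to 0.1163 when 1 library was left out. For Cd44 the averaged genotype effect was 0.0043 with library size alone, 0.0049 with median-of-ratios factors, 0.0303 with loess offsets and 0.0047 in DESeq2, and -0.0373 to 0.036 when 1 library was left out.

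Scalings and filters shifted the median of all peaks by -0.09 to 0.08. Leaving out 1 library shifted it by up to 0.18. Over all alternatives of the named peaks, those with a changed threshold or a library left out included, the call was the same in 615, gained in 18 and lost in 140.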

Other observations

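Between 10 and 25 kb from the genes lay 25 further peaks, 10 of them beside Ccr7, 9 beside S1pr1, 3 beside Klf2 and 3 beside Cd44. For genotype averaged over tissues, 4 of the 10 beside Ccr7 were called higher and 0 lower (beside 4.45% and 4.97% of all tested peaks), and none beside the other genes. Besides -15917, these were +30838 (0.90, edgeR, adjusted p = 0.022), -11372 (0.88, adjusted p = 0.017) and -22869 (0.99, adjusted p = 0.041), which held at most 7.63 CPM. How these 3 depend on single libraries is not given here. Upstream of Ccr7, the peak at -15917 (chr11:99170641-99171348) held at most 23.4 CPM in spleen control and 26.2 to 32.2 CPM in spleen Vps34-deficient libraries. In lung it held 24.7 and 28.6 CPM in control and 50.0 and 43.8 CPM in Vps34-deficient libraries. In each tissue the Vps34-deficient libraries were above the controls, by 0.79 in lung (edgeR, adjusted p = 0.0013) and by 0.60 ± 0.09 averaged over tissues (adjusted p = 0.00013), and both calls were kept in all 10 fits that left out 1 library. The same peak was also called higher in lung, by 0.685 in Vps34-deficient Tregs (adjusted p = 0.00024) and by 0.50 averaged (adjusted p = 0.00021). In control Tregs its tissue effect was 0.32 and was not called (adjusted p = 0.14).

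Another pair of upstream Ccr7 peaks was more open in lung. The peak at -13212 (chr11:99168054-99168524) averaged 11.2 CPM in spleen control, 15.3 in spleen Vps34-deficient, 25.1 in lung control and 35.3 in lung Vps34-deficient libraries, a tissue effect of 1.26 (adjusted p = 1.9e-07). The peak at -17242 (chr11:99172215-99172424) averaged 2.38, 4.02, 7.89 and 10.0 CPM in the same order, a tissue effect of 1.59 (adjusted p = 2.0e-06). Beyond the 3′ end of S1pr1, the peak at +19641 (chr3:115695247-115695616) averaged 8.93, 7.14, 18.8 and 12.4 CPM, a tissue effect of 1.0 on the log2 scale (adjusted p = 1.4e-05). In the opposite direction, the Cd44 peak at -10949 (chr2:102912464-102912764) averaged 3.49, 4.97, 1.98 and 2.24 CPM, a tissue effect of -0.90 ± 0.22 (adjusted p = 0.0036). These 4 tissue calls were kept in all 10 fits that left out 1 library. The nearest gene by position need not be the gene a distant peak acts on, and these assignments were not tested.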
